A study of Felis catus with 3 samples.

Results

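The study listed gene symbols for its feline adipose-derived mesenchymal stem cell (ASC) transcriptome, and only a part of that list was available here. In the available part, 4 of 1811 symbols were calendar dates. Date symbols in the rest of the list could not be counted. A gene said here to have no symbol may be named in the rest of the list. Spreadsheet programs turn symbols such as *SEPT2* or *MARCH5* into a day and a month, so that the gene disappears from any search by name. The 4 genes are described here under the symbols read back from the dates, with the month giving the family and the day giving the number. They were *SEPT2* (ENSFCAG00000002797, listed as 2016-09-02), *SEPT3* (ENSFCAG00000000889, listed as 2016-09-03), *SEPT10* (ENSFCAG00000001967, listed as 2016-09-10) and *MARCH5* (ENSFCAG00000001378, listed as 2016-03-05), out of 21529 genes measured. They were chosen by identifier, for their date symbols and not by their values, although earlier results of these data were known. No other symbol in the available part of that list had the form of a month and a number (0 of 1807), and 1662 of these 1807 symbols (92.0%) were found in the RefSeq table of cat genes, whereas 0 of the 4 dates were.

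RNA sequencing was performed on 3 cultures of noninduced feline ASCs, named Gray_Boy, Luna and SPF2, each grown from the fat of a different cat and represented by 1 library. The cells had no treatment and were grown in MEMα with 10% fetal bovine serum, and cells of passages 3 to 4 were used. All cultures belong to 1 group, so there is no comparison between conditions and no p-value is given. The SD over the 3 lines holds the differences between cats and between libraries together, and these cannot be told apart.

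Septins are GTP-binding proteins that assemble into filaments and rings under the plasma membrane, along actin bundles and at the cleavage furrow of dividing cells. The filaments are mixed polymers built from members of several septin subgroups. *SEPT2* gives its name to one of these subgroups, *SEPT10* belongs to the SEPT6 subgroup, and *SEPT3* is known mainly as a septin of neurons. *MARCH5*, also called MITOL, is not a cytoskeletal gene. It encodes a RING-type E3 ubiquitin ligase of the mitochondrial outer membrane that acts on proteins of mitochondrial fission and fusion. The human symbols have since been changed to *SEPTIN2*, *SEPTIN3*, *SEPTIN10* and *MARCHF5*, which spreadsheets do not convert.

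The position of each locus was compatible with the gene read from its date. The check was close for *SEPT2* and *MARCH5*. For *SEPT3* and *SEPT10* the genes given here place the locus only in a wide region that holds other genes. In the Felis Catus 8.0 assembly, *SEPT2* spans chromosome C1 from 221001362 to 221037538 and lies 17.4 kb from *FARP2*. In the RefSeq annotation of a later cat assembly (F.catus_Fca126_mat1.0), *SEPTIN2* and *FARP2* are neighbours with 0 protein-coding genes between them. *MARCH5* spans chromosome D2 from 54716526 to 54770244, and its locus begins 956 bp beyond the end of *CPEB3*, with again 0 protein-coding genes between the pair in RefSeq. *SEPT3* spans chromosome B4 from 137214631 to 137226814 and lies 2.73 Mb from *JOSD1*, which is on the same side of *SEPTIN3* in RefSeq with 58 protein-coding genes between them. *SEPT10* spans chromosome A3 from 53512582 to 53545538. The nearest genes with a symbol are also far away, at 3.74 Mb (*GINS1*) and 1.74 Mb (*SLC5A7*), and *SEPTIN10* lies between the same 2 genes in RefSeq with 7 and 9 protein-coding genes in the intervals. All 4 genes are on the same chromosome in both sources. The loci cover the whole gene with exons and introns, and none of the 4 overlapped another locus in the available list.

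The values are FPKM, the sequenced fragments of a gene divided by its transcript length and by the size of the library. This allows levels to be compared between genes. The summed FPKM differed between lines, and small differences between lines depended on the scaling. The study called 15 FPKM a moderate and 100 FPKM a high level. A gene is called moderately expressed here when all 3 lines reached 15 FPKM and highly expressed when all 3 reached 100 FPKM. *SEPT2*, *SEPT10* and *MARCH5* were moderately expressed (3 of 4 genes), compared with 22.1% of all 21529 genes and 30.4% of the 1811 genes with a symbol. Only *SEPT2* of the 4 was highly expressed, compared with 3.59% of all genes and 4.53% of genes with a symbol. *SEPT3* was the 1 gene of the 4 above 0 and under 1 FPKM in all lines, a class that held 8.61% of all genes. These 4 genes are 3 of 14 listed septin symbols, of which the cat RefSeq table holds 13, and 1 of 11 listed MARCH ligases. No other listed member of either family had a symbol here, so these counts describe the 4 genes and not the families. The order *SEPT2*, *SEPT10*, *MARCH5*, *SEPT3* was the same in 3 of 3 lines, and the ranges of no 2 of the genes overlapped.

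**Figure D1:**
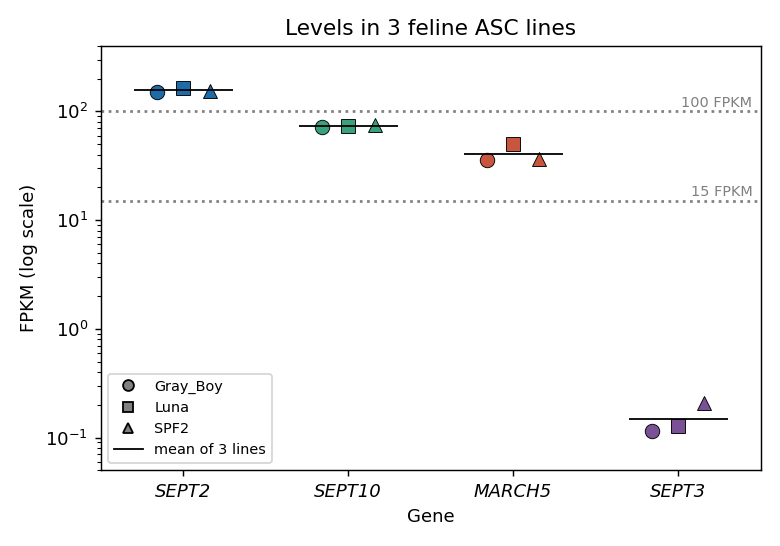
FPKM on a log scale for the 4 genes in the lines Gray_Boy (circles), Luna (squares) and SPF2 (triangles), with the mean of the 3 lines as a bar and the levels of 15 and 100 FPKM dotted. *SEPT2* lies above 100 FPKM, *SEPT10* and *MARCH5* lie between the dotted levels, and *SEPT3* lies between 0.115 and 0.206 FPKM.

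*SEPT2* had the highest level of the 4 genes. Its FPKM was 150 in Gray_Boy, 164 in Luna and 154 in SPF2. The mean was 156 ± 6.89 FPKM (SD, n = 3 lines), which was above the mean of 97.4% of all genes, with 550 genes higher. The highest line was 1.09 times the lowest after adding 1 FPKM to each. Of the 4755 moderately expressed genes, 81.5% had a larger ratio, and the median gene had a ratio of 1.20. Which line was highest depended on the scaling, since Luna led in the deposited values, while SPF2 led after rescaling each line to the same sum (243 against 238 in Luna) or after quantile normalization.

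*SEPT10* was the second septin well above the 15 FPKM level. It had 71.7 FPKM in Gray_Boy, 72.8 FPKM in Luna and 74.7 FPKM in SPF2, with a mean of 73.1 ± 1.53 FPKM (SD, n = 3 lines). This mean was above that of 94.1% of all genes. Of the 4 genes it was the most even between the lines, with a coefficient of variation of 2.10% against a median of 9.72% for the moderately expressed genes, 95.2% of which had a larger one. This order depended on the scaling. In TPM, which gives each line the same sum, the *SEPT10* values were 115, 106 and 117 for Gray_Boy, Luna and SPF2, and the ratio of its highest to its lowest line (1.11) was above that of *SEPT2* (1.02). SPF2 was the highest line on every scale tried.

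Because FPKM is corrected for length, the septins can be set against each other within a line. The *SEPT2* level was 2.10 times that of *SEPT10* in Gray_Boy, 2.25 times in Luna and 2.07 times in SPF2. The *SEPT2* level was 1306, 1293 and 748 times that of *SEPT3* in the same order. The SEPT2 and SEPT6 subgroups were thus each represented by a moderately expressed gene, while *SEPT3* was near the bottom of the scale.

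**Figure D2:**
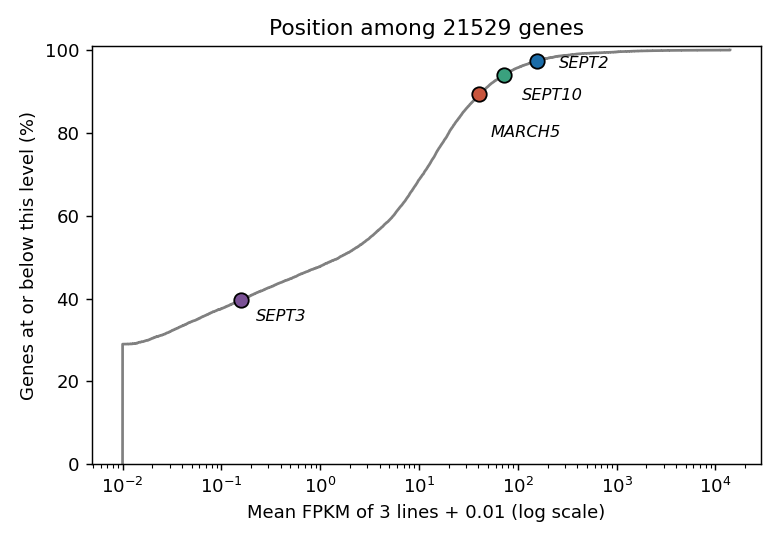
Share of the 21529 genes at or below a given mean FPKM of the 3 lines (grey curve, log scale after adding 0.01), with the 4 genes marked. *SEPT2*, *SEPT10* and *MARCH5* lie on the upper shoulder at 97.4%, 94.1% and 89.4%, and *SEPT3* lies at 39.7%, above the 29.0% of genes at 0 FPKM in every line.

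*SEPT3* was listed above 0 in every line but at very low values. It had 0.115 FPKM in Gray_Boy, 0.127 FPKM in Luna and 0.206 FPKM in SPF2, with a mean of 0.149 ± 0.050 FPKM (SD, n = 3 lines). At such levels the values move in steps of single fragments, and the most frequent ratio between 2 lines among genes under 0.15 FPKM shows how much 1 fragment is worth in one line relative to another. For Gray_Boy and Luna this ratio was 0.911 (21.9% of 663 genes within about 1% of it), and the *SEPT3* ratio was 0.909. This is the ratio that the same number of *SEPT3* fragments in both lines would give. Against SPF2 the steps were less sharp (1.28 for Gray_Boy and 1.40 for Luna, with 12.5% and 10.8% of the low genes on them). Taken at these values, SPF2 had 2.30 times the *SEPT3* fragments of Gray_Boy and 2.28 times those of Luna, whereas its FPKM was 1.79 and 1.63 times as high. The number of fragments itself is not known. Of the 874 genes above 0 and under 0.3 FPKM in all lines, 149 had a ratio of SPF2 to the mean of the other lines at least as high as that of *SEPT3* (1.71), and no difference between lines can be read from its values.

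*SEPT3* was read beside another gene of neurons. Of 9 listed neuronal markers only *RBFOX3*, a neuronal splicing factor, had a symbol here, and it had 0.488, 0.533 and 0.740 FPKM in Gray_Boy, Luna and SPF2. Both genes were under 1 FPKM in every line. In bulk RNA, a few cells with a high level and many cells with a low one cannot be told apart. The part of other cells in the *SEPT3* values was not tested. *SMDT1*, a subunit of the mitochondrial calcium uniporter whose locus lies near *SEPT3*, was not low, at 42.4 to 59.5 FPKM.

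*MARCH5* was the only one of the 3 moderately expressed genes that varied more between lines than the median gene on the deposited scale. It had 36.0 FPKM in Gray_Boy, 50.5 FPKM in Luna and 36.4 FPKM in SPF2, with a mean of 41.0 ± 8.27 FPKM (SD, n = 3 lines), above that of 89.4% of all genes. Gray_Boy and SPF2 were nearly equal, with a ratio of 0.989, and Luna was 1.40 times their mean of 36.2 FPKM. Luna stayed the highest line after rescaling to TPM (73.4 against 57.9 in Gray_Boy and 57.2 in SPF2), after quantile normalization (49.9 against 36.2 and 36.8) and after median-of-ratios scaling (50.1 against 36.1 and 36.6).

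The size of this difference was not rare in Luna. Among the 4755 moderately expressed genes, 406 (8.54%) were at least as far above the mean of the other lines in Luna, and Luna was the highest line for 43.4% of them. The ratio of the highest to the lowest line, 1.39 after adding 1 FPKM, was exceeded by 22.9% of these genes. With 1 library per line, whether a second library of Luna would show the same level was not tested.

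**Figure D3:**
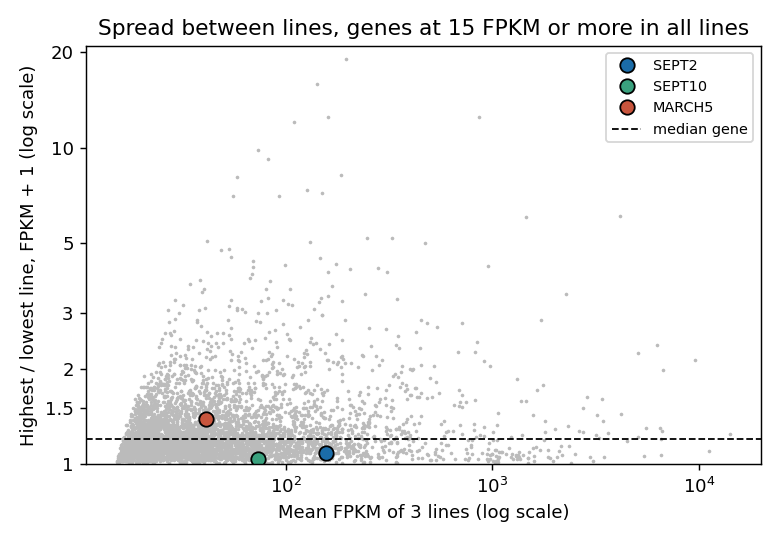
Highest line over lowest line (after adding 1 FPKM, log scale) against the mean FPKM (log scale) for the 4755 moderately expressed genes, with the median gene dashed at 1.20. *SEPT2* (1.09) and *SEPT10* (1.04) lie under the dashed line, and *MARCH5* (1.39) lies above it within the cloud.

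The genes on which MARCH5 protein is known to act, and other genes of mitochondrial shape, had symbols for 4 of 18 listed. In none of these 4 did Luna stand above 2 nearly equal lines as in *MARCH5*. *MFN2*, a fusion GTPase of the outer membrane and a known MARCH5 target, was even at 37.4 FPKM in Gray_Boy, 36.9 FPKM in Luna and 38.3 FPKM in SPF2. *MARCH5* was therefore level with *MFN2* in Gray_Boy and SPF2 (ratios of 0.963 and 0.951) and above it in Luna (1.37). *OPA1*, the fusion GTPase of the inner membrane, had 13.9, 13.7 and 13.7 FPKM. *TOMM22*, a receptor of the protein import pore, had 85.7, 88.4 and 76.3 FPKM, and *PINK1*, a kinase that marks damaged mitochondria, had 20.6, 22.2 and 16.1 FPKM. Both were highest in Luna and lowest in SPF2, whereas *MARCH5* was about equal in Gray_Boy and SPF2. In all, 3 of the 4 genes were moderately expressed, compared with 22.1% of all genes and 30.4% of genes with a symbol. Of the 4, 0 were highly expressed, compared with 3.59% and 4.53%. These counts describe the 4 genes and not the list of 18.

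For the septins, 3 of 19 listed regulators and partners had symbols, and 2 of them are given here. *MYH9*, the heavy chain of nonmuscle myosin IIA that binds septin filaments, had 492 FPKM in Gray_Boy, 658 FPKM in Luna and 540 FPKM in SPF2. *CDC42EP2*, a Cdc42 effector of the Borg family that binds septins, ran the other way with 33.3, 17.7 and 22.6 FPKM. The 2 partners were thus in opposite order across the lines, with *MYH9* highest and *CDC42EP2* lowest in Luna. The *SEPT10* level was 2.15 times that of *CDC42EP2* in Gray_Boy, 4.12 times in Luna and 3.30 times in SPF2, while *SEPT10* itself varied by 1.04 times between lines.

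**Figure D4:**
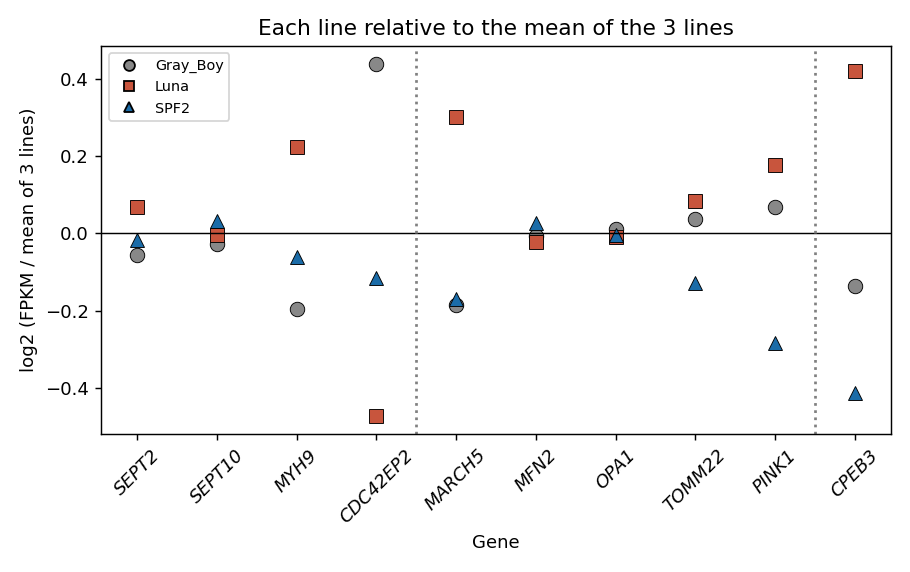
log2 of FPKM over the mean of the 3 lines for Gray_Boy (grey circles), Luna (red squares) and SPF2 (blue triangles). *SEPT2* and *SEPT10* stand with the septin partners on the left, *MARCH5* with 4 mitochondrial genes in the middle and its neighbour *CPEB3* on the right. Luna is highest for *SEPT2*, *MYH9*, *MARCH5*, *TOMM22*, *PINK1* and *CPEB3* and lowest for *CDC42EP2*, while *SEPT10*, *MFN2* and *OPA1* are nearly level.

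*CPEB3*, beside *MARCH5*, and *FARP2* and *PASK*, on either side of *SEPT2*, had far lower levels than these members. *SLC5A7*, *GINS1*, *PDLIM1* and *JOSD1* lie megabases away from the loci. *CPEB3*, a regulator of mRNA translation whose locus ends 956 bp before that of *MARCH5*, had 0.695 FPKM in Gray_Boy, 1.02 FPKM in Luna and 0.574 FPKM in SPF2. *MARCH5* was thus 51.8, 49.4 and 63.4 times as high as *CPEB3* in the 3 lines, and both were highest in Luna. *FARP2*, a guanine nucleotide exchange factor beside *SEPT2*, had 3.60, 5.31 and 3.57 FPKM, so that the mean of *SEPT2* was 37.5 times as high. The *FARP2* value is less certain, because Cufflinks gave it the same locus as *STK25*. *STK25* had 18.7 FPKM in Gray_Boy, 20.3 FPKM in Luna and 18.0 FPKM in SPF2, above *FARP2* but below *SEPT2*. *PASK*, 147 kb away on the other side of *SEPT2* with 3 protein-coding genes between them in RefSeq, had 2.05 to 2.94 FPKM. On either side of *SEPT10*, *SLC5A7*, the choline transporter of cholinergic neurons, was listed at 0 in every line, and *GINS1*, a DNA replication factor, had 4.09 to 11.2 FPKM. *PDLIM1*, which lies 2.04 Mb from *MARCH5*, had 56.1, 89.1 and 28.4 FPKM and was also highest in Luna. Its level was not far from that of *MARCH5*, whose mean was 0.708 times the *PDLIM1* mean. *JOSD1*, 2.73 Mb from *SEPT3*, had 46.7 to 57.1 FPKM.

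By distance on log2(FPKM + 1) over the 3 lines, 1807 other genes with a symbol were compared with each of the 4. The genes most like *SEPT2* were *YWHAG* (distance 0.033), a 14-3-3 protein, *EPRS* (0.079), an aminoacyl-tRNA synthetase, and *KDELR1* (0.096), a retrieval receptor of the secretory pathway. The genes most like *SEPT10* were *SAR1B* (0.032), a GTPase of COPII vesicles, *TMEM120A* (0.085) and *PFDN1* (0.126), a prefoldin subunit. Those most like *MARCH5* were *SPRYD3* (0.085), *LDB1* (0.125), a cofactor of LIM domain proteins, and *UBE2G1* (0.169), a ubiquitin-conjugating enzyme. *SPRYD3* had 36.9, 49.3 and 38.3 FPKM and so had the Luna level above the others as *MARCH5* did. The genes nearest to *SEPT3*, *OPRL1*, *ARHGAP9* and *OXER1* (0.047 to 0.071), were all under 0.3 FPKM. The measure rests on level as much as on pattern over 3 points, and for *SEPT3* it reflects the bottom of the scale.

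The lines were checked against markers of the labelled cells and of other cells, of which few had a symbol in the available part of the list. *ENG* (CD105), the only one of 11 listed stromal markers with a symbol, had 72.5 FPKM in Gray_Boy, 117 FPKM in Luna and 73.9 FPKM in SPF2, and was highest in Luna like *MARCH5*. The 4 of 8 leukocyte markers with a symbol (*ITGB2*, *CD14*, *CD2* and *CORO1A*) summed to 0.598 to 1.96 FPKM, with the lowest sum in Luna and *CD2* at 0 in every line. *TEK*, the only one of 5 endothelial markers, was at 0.059 FPKM or less. No epithelial or adipocyte marker of the list had a symbol. Their part in the *MARCH5* level of Luna was not tested. Summed FPKM ran from 621797 in Gray_Boy to 688297 in Luna, and the median moderately expressed gene was 1.02 times as high in Luna as in the mean of the other lines.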

How the data were processed

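Gene expression was measured by strand-specific sequencing of poly-adenylated RNA (200 ng of total RNA per library) in 3 feline ASC lines of 1 group. The authors aligned reads to Felis Catus 8.0 with HISAT and quantified genes with Cufflinks, and the deposited values are FPKM normalized across lines with Cuffnorm. Tool versions and the annotation release are not given in the sources used here. The study gives only an approximate number of reads per sample. Fragment counts and the exact depth of each library are unknown, so no counting intervals or floors were computed. Reads shared between septin paralogs could not be assessed.

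Values were used as deposited, without a filter, in Python 3.11.15 with pandas 2.3.3 and numpy 2.4.6. Symbols and loci came from the study's gene list, of which 1997 rows were available, 1811 with a symbol. Its expression columns were not read. Locus starts were raised by 1, because Cufflinks counts them from 0 (the end minus the start was a multiple of 3 for 78.6% of 98 loci under 1000 bp). RefSeq symbols were used for gene order only, since that table holds 0 Ensembl identifiers. Ratios between lines used a pseudocount of 1 FPKM where stated. Computations were tested on simulated data.

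The members and gene lists were chosen with earlier results of these data known. Genes were named by rule: the 4 members, listed septin and MARCH genes with a symbol, the 3 highest and 2 lowest of each other list, the 3 genes nearest to each member and the nearest gene with a symbol on each side. *SMDT1* and *STK25* were named after their values were seen. A few genes that this rule selects are not reported here. Alternatives were TPM, quantile and median-of-ratios scaling, other pseudocounts, thresholds and filters, and leaving out each line.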

Additional observations from a re-analysis of the deposited data

How the results depend on the processing

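No paired analysis was possible because all lines belong to 1 group. Of the 4 genes, 3 were moderately expressed under every alternative. The number highly expressed rose from 1 to 2 in TPM and with a threshold 1.5 times lower, *SEPT10* being added. Mean levels in TPM were 241 for *SEPT2*, 113 for *SEPT10*, 62.8 for *MARCH5* and 0.231 for *SEPT3*, because the FPKM of a line sum to less than 1000000; other alternatives moved no mean by more than the SD between lines. The ratio of the highest to the lowest line changed to 1.02 in TPM and 1.03 with quantile normalization for *SEPT2*, and to 1.11 and 1.06 for *SEPT10*. For *SEPT3* it was 1.42 with a pseudocount of 0.1 and 1.79 with none, from 1.08 with a pseudocount of 1. Leaving out 1 line gave ratios of 1.03 to 1.09 for *SEPT2*, 1.01 to 1.08 for *SEPT3*, 1.02 to 1.04 for *SEPT10* and 1.01 to 1.39 for *MARCH5*, whose lowest value was that without Luna. The share of genes with a lower mean depended on the genes counted. It was 94.8%, 88.1% and 78.6% for *SEPT2*, *SEPT10* and *MARCH5* among genes with no line under 1 FPKM, where *SEPT3* has no value, and 95.9%, 90.5%, 82.9% and 5.08% for *SEPT2*, *SEPT10*, *MARCH5* and *SEPT3* among genes above 0 in all lines. Leaving out 1 line gave 97.4% for *SEPT2* each time. Each line had 1 library, so the error of a single value is not known. At the level of *SEPT3* values move in steps of single fragments, and the number of its fragments is not known.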
